A study of Mus musculus with 8 samples.

Results

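The 34 genes described here encode the complement cascade, blood coagulation and fibrinolysis, and were taken by symbol from the 30153 genes measured in 8 mouse heart libraries. They fall into 7 branches by role. These are classical and lectin activation (8 genes), C3 and alternative activation (4), complement receptors (3), complement regulators (5), clotting factors (6), anticoagulants (4) and plasminogen activation (4). All 34 had a row in the table, and 27 of them reached 1 TPM (a transcript level scaled for transcript length and library) in at least 4 libraries and were tested. One of these, Plaur, reached 1 TPM in 3 western diet libraries and 1 control.

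The hearts came from aged mice of strain C57/BL6, all labelled Haplotype-II, which the title of the study ties to overexpression of the human angiotensin type 1 receptor. In 4 of them a western diet was given, whose composition the labels leave out, and in 4 the label gives age and haplotype alone (control). The labels name no age in months, sex, promoter of the transgene, feeding time or batch. Nor do they tie a library to an animal, so a p-value here speaks of the variation among 8 samples, which may be technical.

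Complement is a cascade of plasma proteins that tags microbes and damaged cells. C1q binds antibody or cell debris and activates the proteases C1r and C1s, which cut C4 and C2. The resulting convertase, or that of the alternative pathway built on factor B, cuts C3. Coagulation starts when tissue factor meets plasma and ends in fibrin, which plasmin, formed from plasminogen by tissue-type or urokinase plasminogen activator, dissolves. Most of these plasma proteins come from liver, whereas macrophages, fibroblasts and endothelium make some of them within tissues.

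Some libraries stood apart. The cardiomyocyte gene Tnnt2 was at 5968 to 8106 TPM in western diet libraries and 7954 to 8164 TPM in controls, as in heart muscle. Eif2s3y, a Y-linked gene, was almost silent in western diet replicates 1 to 3 (0 to 0.0231 TPM), while replicate 4 of that group had 22.3 TPM and the controls had 21.1 to 29.0 TPM. In western diet replicates 1 to 3, diet and the lack of Y-linked transcripts therefore cannot be told apart. Every comparison of the 2 groups below carries this difference. Myl7, an atrial myosin chain, reached 335 TPM in diet replicate 2, and 184 and 1403 TPM in the first and the third control. The depth of TPM columns is unknown, so no counting interval is given.

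The C1 subunit genes of the classical pathway lie in clusters. C1qa, C1qc and C1qb sit side by side on chromosome 4, and C1ra and C1s1 on chromosome 6. RefSeq (GRCm38.p6) promoters, from 250 bases before to 50 after the start, were at hand for 23 of the 34 genes. Those of 4 neighbours whose levels ran in step are shown 5′ to 3′. Capitals mark matches, on either strand, to GAGGAA (a core bound by the myeloid factor PU.1), to TTCNNNGAA (a gamma-activated site) and to the NF-kB motif.
C1qb (chr4:136886151-136886450, minus strand): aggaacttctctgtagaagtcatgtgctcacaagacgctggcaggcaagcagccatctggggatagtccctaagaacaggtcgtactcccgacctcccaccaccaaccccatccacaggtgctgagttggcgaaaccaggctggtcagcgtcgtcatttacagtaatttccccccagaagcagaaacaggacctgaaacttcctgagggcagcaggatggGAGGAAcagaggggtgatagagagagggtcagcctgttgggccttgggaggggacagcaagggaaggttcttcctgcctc
C1qc (chr4:136892865-136893164, minus strand): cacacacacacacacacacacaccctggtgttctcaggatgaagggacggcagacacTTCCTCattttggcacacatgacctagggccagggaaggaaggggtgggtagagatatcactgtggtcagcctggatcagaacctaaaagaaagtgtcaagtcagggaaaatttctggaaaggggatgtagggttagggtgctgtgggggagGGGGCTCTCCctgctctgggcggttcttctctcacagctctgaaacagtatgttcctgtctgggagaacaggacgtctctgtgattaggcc
C1ra (chr6:124512371-124512670, plus strand): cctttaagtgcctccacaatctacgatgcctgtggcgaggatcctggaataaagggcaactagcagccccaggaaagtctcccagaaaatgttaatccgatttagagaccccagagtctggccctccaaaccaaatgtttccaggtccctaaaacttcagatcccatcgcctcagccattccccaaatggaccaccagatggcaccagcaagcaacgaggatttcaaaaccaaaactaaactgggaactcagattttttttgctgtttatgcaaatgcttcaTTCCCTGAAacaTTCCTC
C1s1 (chr6:124542310-124542609, minus strand): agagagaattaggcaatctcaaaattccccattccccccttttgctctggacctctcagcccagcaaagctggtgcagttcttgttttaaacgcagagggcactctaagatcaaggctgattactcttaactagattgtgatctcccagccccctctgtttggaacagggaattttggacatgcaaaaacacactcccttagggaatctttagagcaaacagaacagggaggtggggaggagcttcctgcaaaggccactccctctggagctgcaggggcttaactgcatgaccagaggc
GAGGAA is in 3 of these 4 windows, in 11 of the 26 windows of member genes (42.3%) and in 28.1% of all 32544 windows. TTCNNNGAA was found in 7.69% of member windows and 8.33% of all, the NF-kB motif in 3.85% and 4.53%, a pair of GAAA runs with NN between them (the core of an interferon-stimulated response element) in 3.85% and 3.45%, and TATAAA in 15.4% and 13.6%. The single match to the paired GAAA runs among the members was in the window of Cd59a. These motifs can share letters, since GAGGAA ends as a GAAA run begins and the NF-kB motif can run into TTCNNNGAA.

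None of the 27 tested genes passed an adjusted p of 0.05 (limma on log2(TPM + 1), Benjamini-Hochberg over 10969 genes), which 0.301% of all genes did. At an unadjusted p under 0.05 there were 13, with 11 higher and 2 lower in the diet group (11.7% of all genes, either way). By direction, 9.2% of all genes were higher and 2.51% lower. All libraries of western diet lay above all controls for 5 of the 27 (18.5%; 4.85% of all genes) and below for 0 (1.75% of all genes; 6.6% in either direction). The log2 fold change was above 0 for 21 of the 27 (77.8%) and for 66.4% of all genes. With TPM rescaled by the median of ratios, 10 of the 27 were higher and 2 lower at an unadjusted p under 0.05. Over all genes 836 were higher and 799 lower at that p, against 1009 and 275 before. After this rescaling the log2 fold change was above 0 for 19 of the 27 and for 5323 of the 10969 genes.

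Complement genes made up most of the higher ones. Of 17 tested complement genes, 16 had a positive log2 fold change, with a median of 0.38, and 10 had an unadjusted p under 0.05, all higher. Of 10 tested coagulation and fibrinolysis genes, 5 were positive and 5 negative, with a median of 0.06, and 1 was higher and 2 lower at that p. The median over all genes was 0.06, and 66.4% of them were positive. At that p, 9.2% of all genes were higher and 2.51% lower. With a model term for Y-linked transcripts, the diet estimate compares western diet replicate 4 alone with the controls. The median was then 0.17 for complement genes, -0.06 for coagulation and fibrinolysis genes and -0.07 for all genes. Without western diet replicate 1, control replicate 2 or control replicate 1, 5, 5 and 6 complement genes were higher at an unadjusted p under 0.05. Over all genes these numbers were 722, 584 and 690, against 1009 with all 8 libraries. The difference between both sets was not tested.

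**Figure D1:**
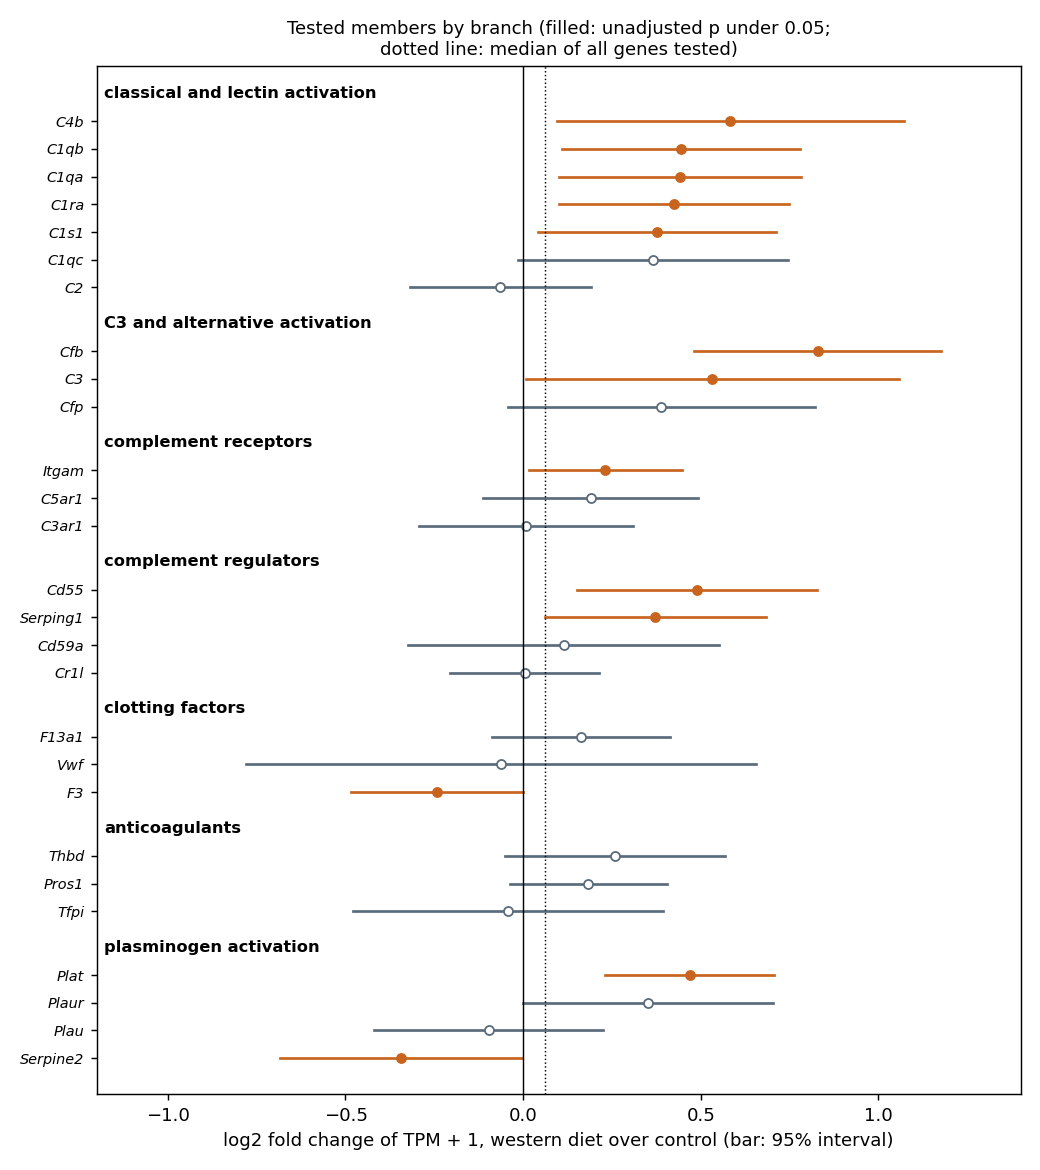
Log2 fold change of TPM + 1, western diet over control, for the 27 tested genes in 7 branches; points are limma estimates, bars 95% intervals, filled orange points have an unadjusted p under 0.05 and the dotted line is the median of all genes tested (0.06). The complement branches lie mostly right of 0, Cfb farthest at 0.83, while clotting factors and the plasminogen branch lie on both sides.

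In the classical pathway, C1q was among the most abundant members. C1qa, which encodes the A chain, was at 75.9, 47.0, 43.2 and 47.9 TPM in western diet replicates 1 to 4, against 39.7, 35.4, 41.7 and 36.2 TPM in control replicates 1 to 4. The groups did not overlap, but western diet replicate 3 and control replicate 3 were close. The log2 fold change was 0.44 (SE 0.15, limma unadjusted p = 0.0157, adjusted p = 0.293). C1qb, the B chain, was at 67.8, 42.3, 40.2 and 42.6 TPM with western diet, against 34.7, 30.5, 38.1 and 34.5 TPM in control (log2 fold change 0.45, SE 0.15, limma adjusted p = 0.281). Its groups did not overlap either. C1qc, the C chain, was at 23.3 to 44.9 TPM with western diet and at 21.0 to 26.1 TPM in control, which overlap (limma adjusted p = 0.442).

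The 3 chains kept nearly the same proportions in every library. C1qa per C1qb was 1.08 to 1.12 with western diet and 1.05 to 1.16 in control, and C1qa per C1qc was 1.60 to 1.86 and 1.60 to 1.70. In bulk RNA, more cells of a type and more RNA per cell cannot be told apart. Csf1r, the receptor that macrophages depend on, was at 7.14 to 11.8 TPM with western diet and 7.43 to 10.6 TPM in control. C1qa per Csf1r was 6.41, 5.14, 4.52 and 6.71 with western diet, against 4.51, 4.76, 3.92 and 4.63 in control, so replicate 3 of the diet group lay within the control range. No ratio to another macrophage marker was taken, and some of these rose more than Csf1r. Lyve1 was at 4.74 to 10.8 TPM with western diet and 3.13 to 4.65 TPM in control. Ctss was at 14.1 to 20.6 TPM and 10.1 to 13.6 TPM. The groups of the other tested macrophage markers overlapped. All 9 tested of 10 macrophage markers had a positive log2 fold change, from 0.03 to 0.70, with 2 at an unadjusted p under 0.05. Of all genes, 66.4% had a positive log2 fold change and 9.2% were higher at that p. The summed level of the 10 was 132 to 214 TPM with western diet and 134 to 168 TPM in control, and none of them was at 0. Their part in the C1q values was not tested.

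C1ra and C1s1, the proteases that C1q activates, also ran together. C1ra was at 15.01, 10.2, 10.4 and 9.03 TPM with western diet, against 7.65, 6.88, 9.39 and 7.96 TPM in control (log2 fold change 0.42, SE 0.15, limma adjusted p = 0.289). Western diet replicate 4 lay just under control replicate 3. C1s1 was at 27.4, 20.9, 18.8 and 17.5 TPM with western diet, against 13.8, 13.7, 19.9 and 16.5 TPM in control (log2 fold change 0.38, SE 0.15, limma adjusted p = 0.373). Control replicate 3 lay within the diet group. C1ra per C1s1 was 0.489 to 0.553 with western diet and 0.473 to 0.553 in control. Their close relatives C1rb and C1s2, whose transcripts are 97.9% and 95.9% identical to them over 81.5% and 89.7% of their length, were listed at 0 and at no more than 0.0284 TPM. Reads can be split between such copies.

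C4b, a complement component cut by C1s, was at 11.7, 6.55, 5.88 and 9.85 TPM with western diet, against 5.34, 3.39, 7.14 and 5.29 TPM in control (log2 fold change 0.58, SE 0.22, limma adjusted p = 0.346). Western diet replicates 1 and 4 were above all controls, and replicates 2 and 3 were within their range. C2, the other substrate of C1s, was at 0.980 to 1.42 TPM with western diet and 0.972 to 1.44 TPM in control. The 95% interval of its log2 fold change ran from -0.32 to 0.19. Masp1, a protease of the lectin pathway, stayed at 0.0295 to 0.142 TPM with western diet and 0.0296 to 0.154 TPM in control and was not tested.

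**Figure D2:**
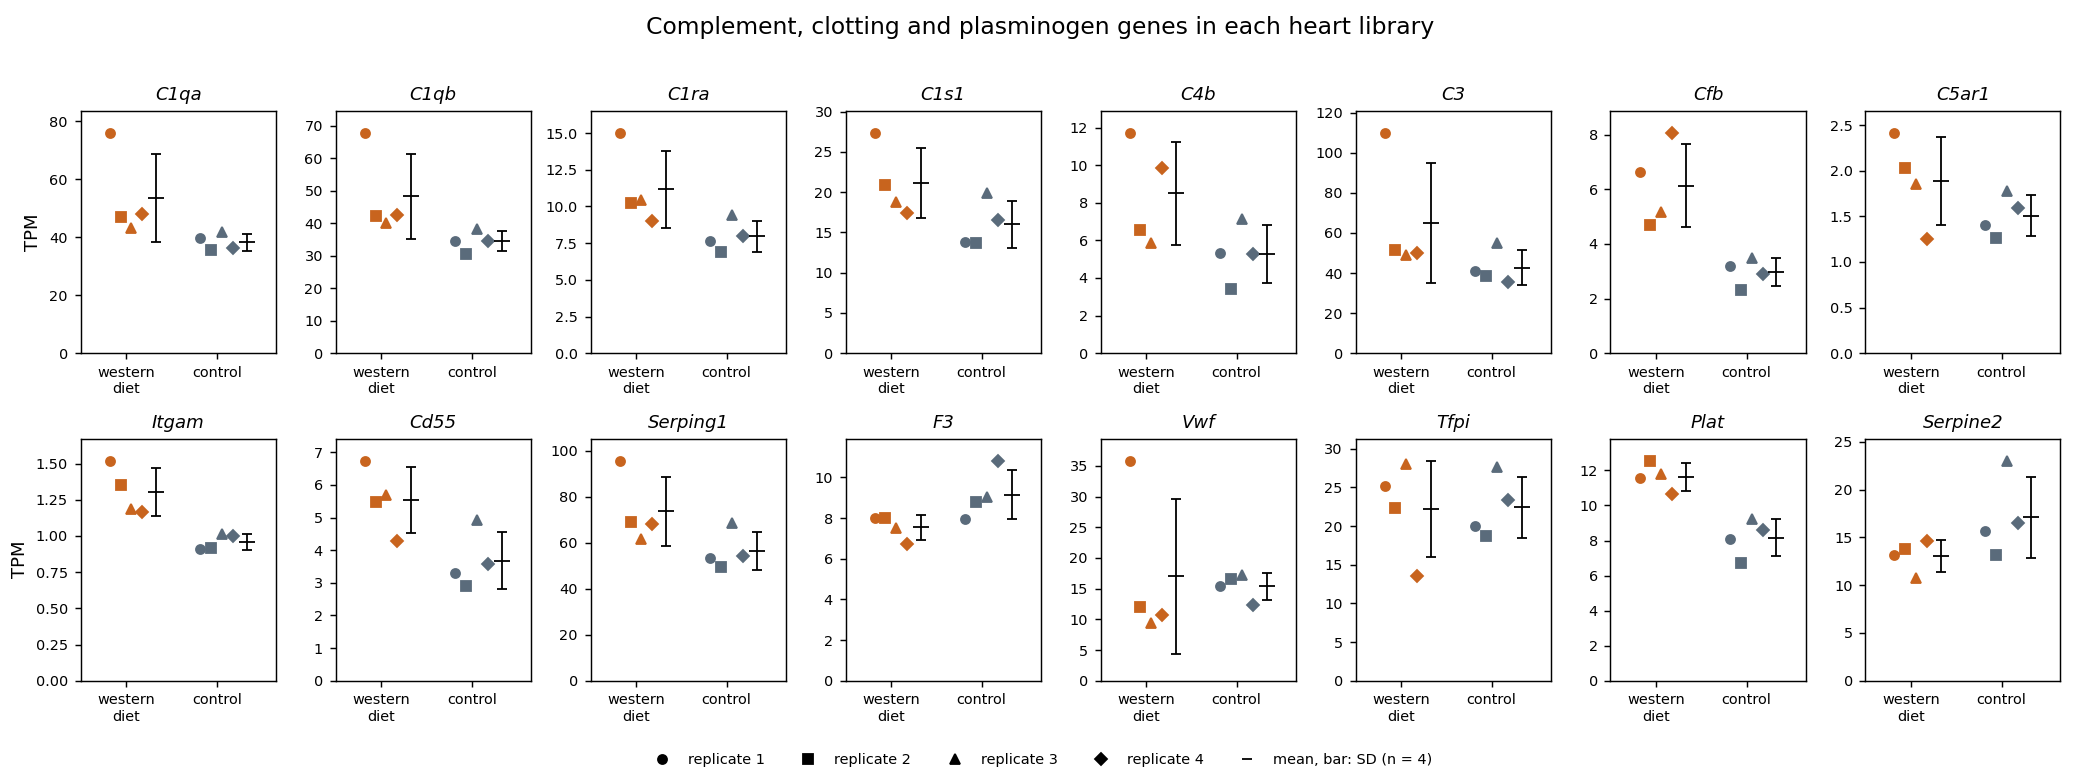
TPM of 16 genes in each library, western diet (orange) left of control (grey), with a symbol for each replicate and black bars for mean and SD (n = 4 per group). These are the tested genes with an unadjusted p under 0.05, with groups that do not overlap, or with the highest level of their branch. Cfb, Plat, Itgam, C1qa and C1qb have no overlap, and western diet replicate 1 stands high in C3, Vwf, C1qa and C1qb.

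Cfb had the smallest p of the 27 tested genes. It encodes factor B, the protease of the alternative pathway convertase, and lies on chromosome 17 from 34856374 to 34862518 of GRCm38, beside C2. It was at 6.63, 4.67, 5.17 and 8.06 TPM with western diet, against 3.18, 2.32, 3.49 and 2.90 TPM in control. The lowest western diet value was above the highest control. The mean was 2.06 times as high (6.13 ± 1.53 against 2.97 ± 0.498 TPM, SD, n = 4 each; log2 fold change 0.83, SE 0.16, limma adjusted p = 0.0630). Cfb per C2 was 3.63 to 8.22 with western diet and 1.61 to 2.99 in control. A gene annotated across both, Gm20547, was at no more than 0.212 TPM.

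Interferon-stimulated genes were higher in the same libraries. Irf7, a transcription factor that interferon induces, was at 14.7, 10.5, 11.7 and 61.0 TPM in western diet replicates 1 to 4, against 5.32, 4.87, 4.84 and 3.65 TPM in control. In the diet group both Irf7 and Cfb were highest in replicate 4 and lowest in replicate 2, whereas control replicate 4 had the lowest Irf7 and control replicate 2 the lowest Cfb. All 8 interferon markers had an unadjusted p under 0.05 and were higher, as were 9.2% of all genes. Their summed level was 50.3 to 198 TPM with western diet and 27.9 to 37.6 TPM in control. None of the 8 was at 0. Kidney tubule markers were higher in the diet group too, with a summed level of 9.02 to 79.0 TPM against 0 to 0.685 TPM in control, where Miox, Slc34a1 and Umod were all at 0. Umod was also at 0 in western diet replicates 1 and 3. Most of the summed level was Kap. It was at 9.58, 7.15, 13.4 and 72.1 TPM with western diet and 0 to 0.685 TPM in control, and was also highest in diet replicate 4 and lowest in replicate 2. The part of either list in the level of Cfb was not tested. With the Y-linked term, the diet estimate compares western diet replicate 4 alone with the controls. For Cfb it was 1.20 on the log2 scale. Over 18 alternatives the limma adjusted p of Cfb ran from 0.0353 to 0.214.

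**Figure D3:**
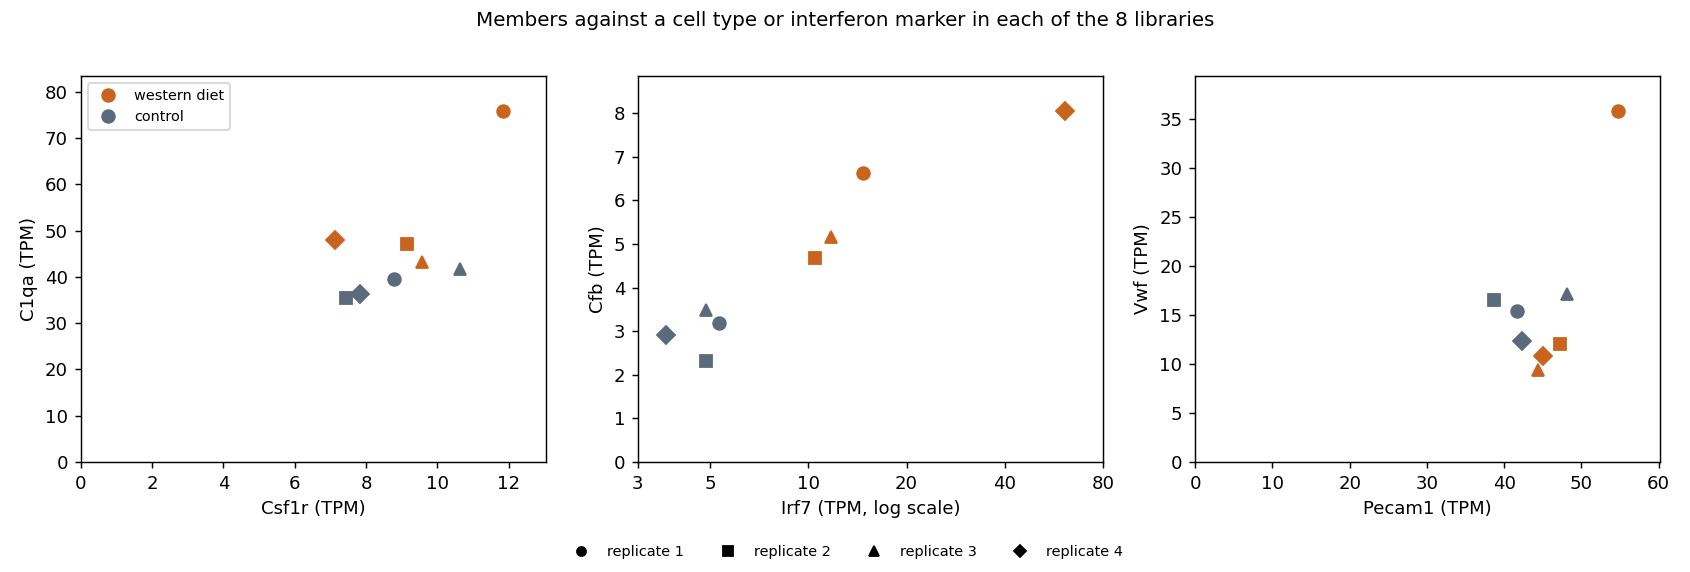
TPM of C1qa against Csf1r, Cfb against Irf7 (log scale on the x axis) and Vwf against Pecam1, 1 point per library, western diet in orange and control in grey. In the diet group Cfb, at 4.67 to 8.06 TPM, is highest and lowest in the libraries where Irf7 is, and western diet replicate 1 is the top right point in the panels of C1qa and Vwf.

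C3, the protein on which both pathways converge, was at 109.9, 51.7, 49.0 and 49.8 TPM with western diet, against 40.9, 38.3, 55.2 and 35.6 TPM in control (log2 fold change 0.53, SE 0.24, limma adjusted p = 0.422). Replicate 1 was far above the other 3 diet libraries, and control replicate 3 was above the other 3. Cfp, properdin, which stabilises the alternative convertase, had the same high library, at 8.21, 4.14, 4.25 and 3.48 TPM with western diet and 2.94, 3.33, 3.58 and 3.85 TPM in control. Its groups overlapped (limma adjusted p = 0.478).

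Cfd, the adipocyte-rich protease adipsin that cuts factor B, followed another library. It was at 0.322, 0, 0.409 and 0 TPM with western diet, against 0.615, 0, 11.1 and 2.38 TPM in control, and was not tested. Control replicate 3 was also the highest library for the adipocyte genes Adipoq (5.61 TPM, at most 0.398 TPM elsewhere), Cidec (4.31 TPM, at most 0.861 TPM elsewhere), Plin1, Lep and Retn. The sixth marker, Fabp4, which endothelium also expresses, was at 473 to 616 TPM with western diet and 471 to 514 TPM in control. The part of adipocytes in Cfd was not tested.

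Receptors for complement fragments were low. Itgam, the alpha chain of complement receptor 3, was at 1.52, 1.35, 1.19 and 1.17 TPM with western diet, against 0.909, 0.917, 1.01 and 1.00 TPM in control, and the groups did not overlap (log2 fold change 0.23, SE 0.10, limma adjusted p = 0.398). Its partner Itgb2, an integrin beta chain outside the 34, was at 2.41 to 3.52 TPM with western diet and 1.55 to 2.20 TPM in control (limma adjusted p = 0.163). C5ar1, the receptor for the anaphylatoxin C5a, was at 2.41, 2.03, 1.85 and 1.25 TPM with western diet, against 1.41, 1.26, 1.78 and 1.59 TPM in control. Diet replicates 1 to 3 were above all controls and replicate 4 below them (log2 fold change 0.19, SE 0.14, limma adjusted p = 0.643). C3ar1, the receptor for C3a, was at 0.659 to 1.55 TPM with western diet and 0.863 to 1.21 TPM in control. Of 8 neutrophil and monocyte markers, the 3 tested all had a positive log2 fold change, as did 66.4% of all genes. Ccr2, not tested, was mostly lower with western diet. S100a8, a neutrophil calcium-binding protein, was at 3.01 to 5.60 TPM with western diet and 0.940 to 1.74 TPM in control. Ccr2, the chemokine receptor of monocytes, was at 0.580, 0.630, 1.02 and 0.549 TPM with western diet, against 0.919, 0.934, 1.25 and 1.09 TPM in control, and was too low to be tested. Ly6c2, a monocyte surface antigen, was at 1.44 to 2.09 TPM with western diet and 0.282 to 0.798 TPM in control, and reached the filter through the diet group alone. The summed level of the 8 was 12.02 to 20.6 TPM with western diet and 5.96 to 9.61 TPM in control, with Retnlg and Ngp at 0 in some libraries, and their part was not tested.

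Regulators restrain complement on cells and in plasma. Of the 5, Serping1, Cd59a and Cr1l ranged from 27.9 to 95.8 TPM over all libraries, while Cd55 and Cfi were lower. Serping1, the inhibitor of C1r and C1s, was at 95.8, 69.0, 61.8 and 68.4 TPM with western diet, against 53.4, 49.5, 68.4 and 54.0 TPM in control (log2 fold change 0.37, SE 0.14, limma adjusted p = 0.345). Control replicate 3 lay within the diet range. Cd55, which splits C3 convertases, was at 6.75, 5.47, 5.69 and 4.28 TPM with western diet, against 3.31, 2.90, 4.92 and 3.57 TPM in control (log2 fold change 0.49, SE 0.15, limma adjusted p = 0.232). Diet replicate 4 alone lay within the control range. Cr1l, the rodent membrane regulator also called Crry, was at 31.1 to 39.5 TPM with western diet and 33.0 to 39.2 TPM in control, with a 95% interval of the log2 fold change from -0.20 to 0.21. Cfi, the plasma protease that inactivates C3b, was at no more than 0.0862 TPM with western diet and 0.0877 TPM in control.

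Cd59a, which blocks the membrane attack complex, split the diet group. It was at 62.2, 55.3, 48.3 and 27.9 TPM with western diet, against 39.1, 43.5, 44.6 and 44.4 TPM in control. Replicates 1 to 3 were above every control and replicate 4 was below every control. Its neighbour Cd59b was at 10.5, 8.86, 7.20 and 2.29 TPM with western diet, against 5.75, 7.27, 5.82 and 4.89 TPM in control, with replicate 4 again lowest. The transcripts of both are 83.2% identical over 39.1% of the length of Cd59a, so reads may be shared. The log2 fold change of Cd59a was 0.11 (SE 0.20, limma adjusted p = 0.873) over all 8 libraries. It was -0.60 with the Y-linked term, which sets replicate 4 alone against the controls. Over its alternatives it ran from -0.60 to 0.35.

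**Figure D4:**
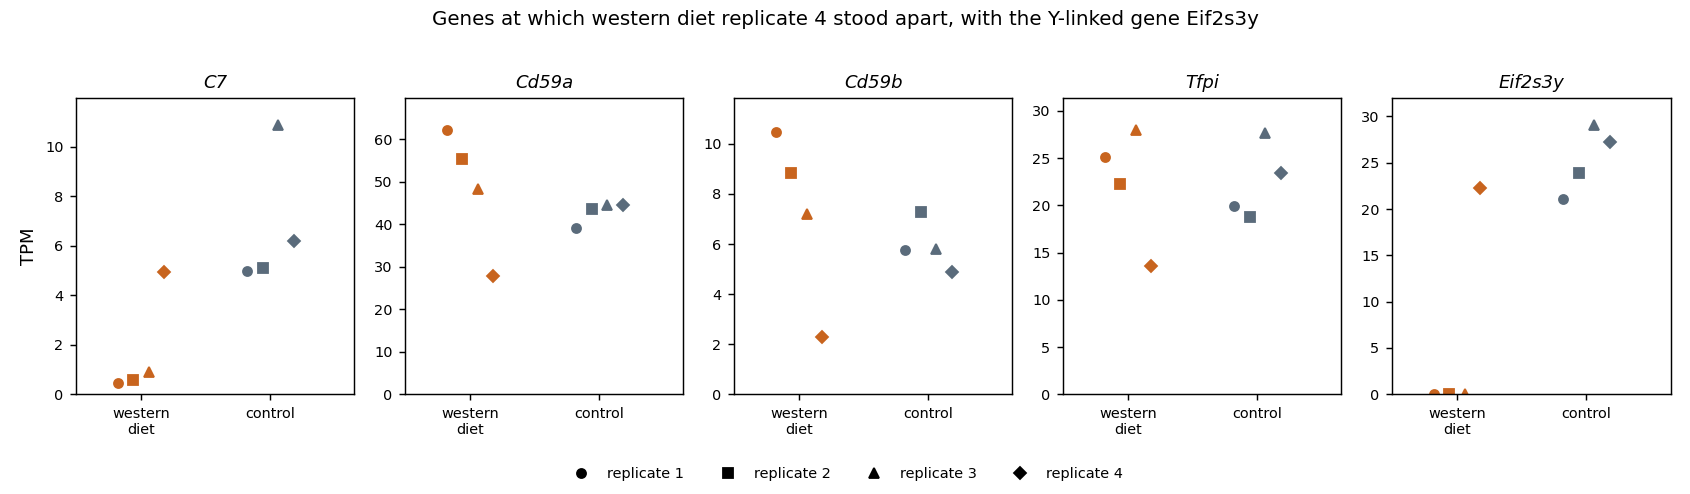
TPM in each library of C7, Cd59a, Cd59b, Tfpi and the Y-linked gene Eif2s3y, western diet (orange) left of control (grey), with a symbol for each replicate. Western diet replicate 4 carries Y-linked transcripts as the controls do; it is near the controls for C7 (4.95 TPM) and below all of them for Cd59a (27.9 TPM), Cd59b (2.29 TPM) and Tfpi (13.5 TPM).

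Clotting factors made in heart showed no common direction. F3, tissue factor, the trigger of coagulation, was at 8.00, 8.00, 7.51 and 6.70 TPM with western diet, against 7.97, 8.78, 9.03 and 10.8 TPM in control (log2 fold change -0.24, SE 0.11, n = 4 each, limma adjusted p = 0.424). The groups overlapped at control replicate 1. F13a1, the fibrin-crosslinking subunit that resident macrophages express, averaged 9.74 ± 1.55 TPM with western diet and 8.54 ± 0.637 TPM in control (SD, n = 4 each; limma adjusted p = 0.627). F5, F8 and F10, a cofactor of the prothrombin-cutting complex, a cofactor of factor IX and the enzyme of that complex, stayed under 0.51 TPM in all libraries and were not tested. F8 was at 0.196 to 0.509 TPM with western diet and 0.228 to 0.400 TPM in control.

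Vwf, von Willebrand factor, which tethers platelets and is made by endothelium, depended on 1 library. It was at 35.9, 12.04, 9.40 and 10.8 TPM with western diet, against 15.4, 16.5, 17.2 and 12.3 TPM in control. Replicate 1 was the highest of all 8 and the other 3 diet libraries were below all 4 controls. The means, 17.0 ± 12.6 and 15.4 ± 2.14 TPM (SD, n = 4 each), and the log2 fold change, -0.06 (SE 0.33, limma adjusted p = 0.964), differ in sign. Without replicate 1 the log2 fold change was -0.48 (limma adjusted p = 0.209, the lowest of a range up to 0.998). Pecam1, a general endothelial marker, was at 44.4 to 54.7 TPM with western diet and 38.7 to 48.2 TPM in control, so Vwf per Pecam1 was 0.656 in diet replicate 1, 0.212 to 0.255 in the other 3 and 0.292 to 0.427 in control. The 7 endothelial markers summed to 216 to 253 TPM with western diet and 195 to 229 TPM in control, with none at 0.

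Among anticoagulants, Tfpi, the inhibitor of the tissue factor complex, was highest. It was at 25.1, 22.3, 27.9 and 13.5 TPM with western diet, against 19.9, 18.7, 27.6 and 23.4 TPM in control (log2 fold change -0.04, SE 0.20, limma adjusted p = 0.960). Replicate 4 of the diet group was below all controls. Thbd, thrombomodulin, which turns thrombin towards protein C, was at 18.4, 19.7, 15.7 and 12.1 TPM with western diet, against 12.7, 12.1, 15.1 and 13.9 TPM in control, so diet replicates 1 to 3 were above all controls (limma adjusted p = 0.512). Pros1, protein S, the cofactor of activated protein C, was at 7.41 to 8.95 TPM with western diet and 6.51 to 7.87 TPM in control (limma adjusted p = 0.514). Procr, the endothelial receptor of protein C, was at 0.355 to 1.39 TPM with western diet and 0.464 to 1.27 TPM in control and was not tested.

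In the plasminogen branch, Plat had the second smallest p of the 27 tested genes. It encodes tissue plasminogen activator, which endothelium releases, and was at 11.6, 12.6, 11.8 and 10.6 TPM with western diet, against 8.09, 6.73, 9.24 and 8.58 TPM in control. The groups did not overlap, and the 4 diet libraries were close together (11.6 ± 0.791 against 8.16 ± 1.06 TPM, SD, n = 4 each; log2 fold change 0.47, SE 0.11, limma adjusted p = 0.112). After median-of-ratios scaling it passed (log2 fold change 0.40, limma adjusted p = 0.0460, the lowest of a range up to 0.621). Plau, the urokinase activator, was at 1.67, 2.33, 3.14 and 3.22 TPM with western diet and at 2.60 to 2.89 TPM in control. Its receptor Plaur was at 0.760 to 2.06 TPM with western diet and 0.639 to 1.11 TPM in control (limma adjusted p = 0.430). Serpine2, protease nexin, which inhibits thrombin and both activators, was at 13.2, 13.8, 10.8 and 14.6 TPM with western diet, against 15.7, 13.2, 23.0 and 16.5 TPM in control (log2 fold change -0.34, SE 0.15, limma adjusted p = 0.422). Control replicate 3 was the highest and control replicate 2 lay within the diet range.

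**Figure D5:**
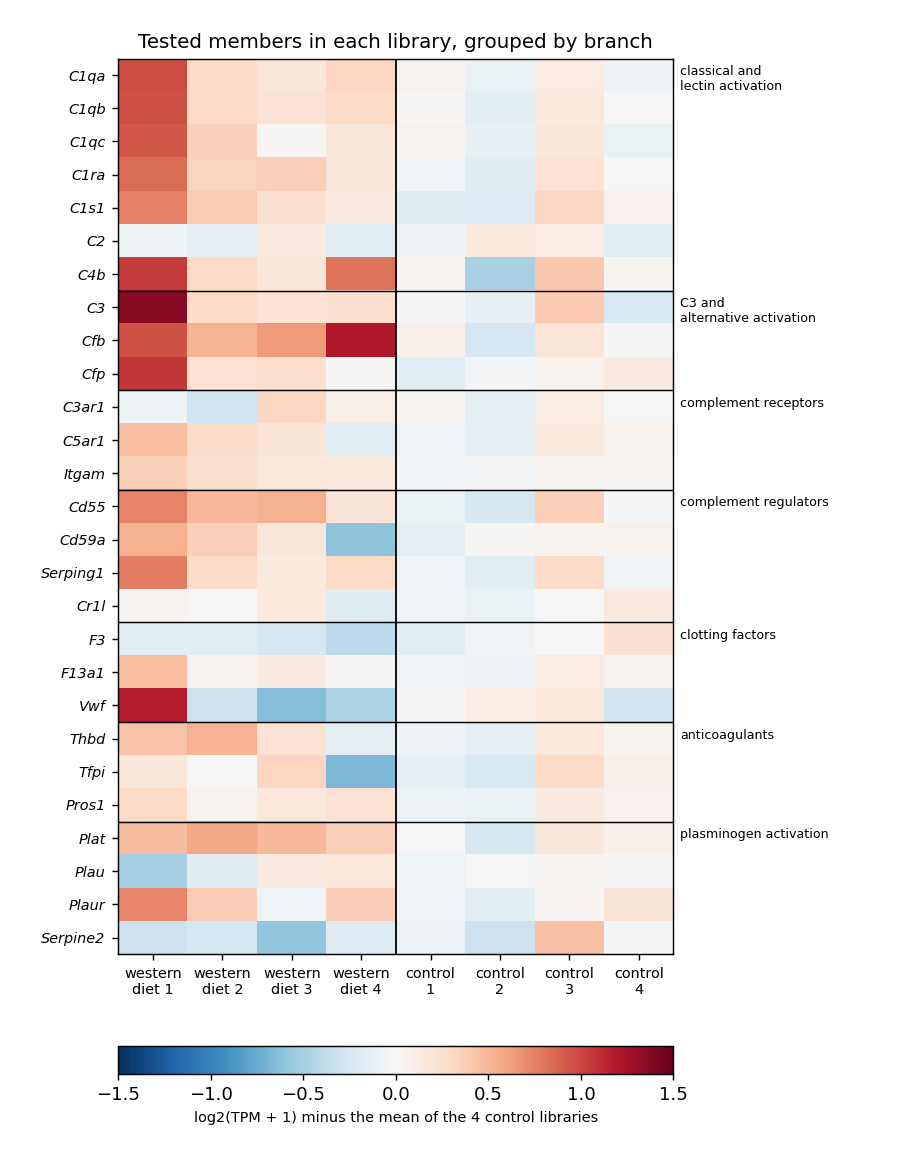
Log2(TPM + 1) of the 27 tested genes in each library, minus the mean of the 4 controls, western diet left of control, with lines between branches (red: higher, blue: lower). Western diet replicate 1 is the highest of the 8 libraries for 17 of the 27 genes, a count not made over all genes. Replicate 4 of that group is blue for Cd59a and Tfpi.

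Within each group, single libraries carried much of the spread. Western diet replicate 1 was the highest of all 8 for 17 of the 27 genes and was above all controls for 20. Western diet replicate 4 was above all controls for 9 and below all of them for 6 (C5ar1, Cd59a, Cr1l, F3, Vwf and Tfpi). Control replicate 3 was the highest control for 22 of the 27 and control replicate 2 the lowest for 19. These positions were not counted over all genes. The median-of-ratios factor, taken over all genes, was 1.07, 1.12, 1.02 and 0.924 in western diet replicates 1 to 4. It was 0.955, 0.885, 1.07 and 1.01 in control replicates 1 to 4, so control replicate 3 was highest and replicate 2 lowest there too. The part of library scale in the positions was not tested. Without western diet replicate 1, 7 genes had an unadjusted p under 0.05 in place of 13, with 7 without control replicate 2 and 8 without control replicate 1. Over all genes these numbers were 1112 of 10851, 864 of 10914 and 901 of 10910, in place of 1284 of 10969. Without western diet replicate 4 or control replicate 3 the groups did not overlap for 11 genes in place of 5, while over all genes that number was 1662 of 10895 and 1309 of 10834 in place of 724 of 10969.

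Other genes of these pathways were counted from a list of 71, of which 69 had a row and 21 were tested. None passed an adjusted p of 0.05. At an unadjusted p under 0.05, 5 of the 21 were higher and 1 lower, against 9.2% and 2.51% of all genes. The higher ones included Itgb2, Anxa2, Fcna and Vkorc1. Anxa2, a cell surface receptor for both plasminogen and Plat, was at 48.0 to 65.3 TPM with western diet and 38.8 to 47.6 TPM in control (limma adjusted p = 0.189). Fcna, a ficolin of the lectin pathway, was at 3.14 to 5.21 TPM with western diet and 2.40 to 2.97 TPM in control (limma adjusted p = 0.347). Vkorc1, which recycles vitamin K for clotting factor synthesis, averaged 8.50 ± 2.68 TPM with western diet and 5.85 ± 0.580 TPM in control (SD, n = 4 each; limma adjusted p = 0.413).

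The lower one was C7, a subunit of the membrane attack complex. It was at 0.460, 0.570, 0.891 and 4.95 TPM with western diet, against 4.99, 5.12, 10.9 and 6.18 TPM in control (log2 fold change -1.73, SE 0.40, limma adjusted p = 0.112). The 3 diet libraries without Y-linked transcripts were far below the controls, and the one with them was just under the lowest control. Its estimate was -0.33 with the Y-linked term, which sets western diet replicate 4 alone against the controls. Without that replicate it was -2.20 (limma adjusted p = 0.00193), the lowest p over 17 alternatives. In the second of these fits every diet library was under 1 TPM, so C7 reached the filter through the controls, where it is high, and that p supports nothing. With all 8 libraries the controls also meet the filter alone. Of the other terminal components, C8g was at 2.26 to 3.23 TPM with western diet and 2.31 to 3.24 TPM in control, and Hc, C6, C8a, C8b and C9 were at no more than 0.232 TPM. Clu, clusterin, an abundant regulator outside the 34, overlapped between the groups, at 287 to 330 TPM with western diet and 285 to 419 TPM in control.

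The liver-made core of coagulation was almost absent from these hearts. F2 (prothrombin), Fga, Fgb and Fgg (fibrinogen) and Plg (plasminogen) were at no more than 0.0610 TPM with western diet and 0.408 TPM in control. The highest of these values were in control replicate 3, which also had the highest Alb (6.83 TPM, at most 0.751 TPM with western diet). Hepatocyte markers summed to 2.97 to 8.02 TPM with western diet and 3.53 to 22.8 TPM in control, and their part in these traces was not tested.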

How the data were processed

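The authors deposited gene-level TPM with Ensembl identifiers and 1 column per library; per the submitters' processing notes kallisto, DESeq2 and the build GRCm38 were used, with no roles or versions. Per the labels' protocols, polyadenylated RNA was pulled down for stranded libraries. TPM is relative and keeps no depth; columns summed to 941318 to 953448. GENCODE vM21 named 29732 of 30153 identifiers; C4a and Klkb1 were not analysed here. Replicates are numbered in accession order and pair nothing.

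The 10969 genes that reached 1 TPM in 4 or more libraries entered a limma model (version 3.58.1, R 4.3.3) of log2(TPM + 1), with diet as the sole term, an intensity trend and two-sided p-values, which understates changes of low genes. The 34 genes, the branches, the other lists, the motifs and the alternatives were chosen with earlier results of these data known. Every gene is given; full statistics go to tested genes with an unadjusted p under 0.05, with groups that do not overlap, or with the highest level of their branch, and of the other pathway genes those with an unadjusted p under 0.05 are named, besides some chosen after their values were seen. Some results are not reported here. The test was tested on simulated data: of 200 genes (mean log2(TPM + 1) over 1.5) changed 2-fold in TPM + 1 among 10969 in each of 10 runs, 92.4% were recovered, and 4.91% of calls were false. No tested member changed as much, the largest log2 fold change being 0.83, and differences between whole libraries were not simulated. These rates therefore do not give the recovery of the smaller changes described here. Transcripts were compared with BLAST 2.17.0. Alternatives were other pseudocounts (0.1 and 0.5) and filters (none, or a mean of 5 TPM or more), scaling by median of ratios or without mitochondrial genes, library weights, a robust prior, an adjusted p of 0.10, leaving out each library, a Y-linked term (for Eif2s3y at 1 TPM or more), using such libraries alone, and leaving out those with Myl7 at 100 TPM or more. Tables and figures used Python 3.11.15, pandas 2.3.3 and matplotlib 3.10.9.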

Additional observations from a re-analysis of the deposited data

Results flagged for a closer look

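Of 66 groups of 4 libraries (the 27 tested genes and 6 other pathway genes), 7 had 1 library far from the other 3, where chance gives about 1 in 20. The gap to the nearest library, as a share of the range of the group, had to exceed Dixon's critical value for 4 libraries. In 6 of the 7 the library was western diet replicate 1, and in all 7 it was the highest. C3 was at 109.9 TPM there, against 49.0 to 51.7 TPM in the other 3 diet libraries (gap 0.955). C1qb was at 67.8 TPM, against 40.2 to 42.6 TPM (gap 0.911), and C1qa at 75.9 TPM, against 43.2 to 47.9 TPM (gap 0.857). Vwf was at 35.9 TPM, against 9.40 to 12.04 TPM (gap 0.900), Cfp at 8.21 TPM, against 3.48 to 4.25 TPM (gap 0.837), and Fcna at 5.21 TPM, against 3.14 to 3.44 TPM (gap 0.857). For C7 it was western diet replicate 4, at 4.95 TPM, against 0.460 to 0.891 TPM in the other 3 (gap 0.904).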

How the results depend on the processing

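No paired analysis was possible because the labels give no replicate numbers that the groups share. The Y-linked term and the libraries with Y-linked transcripts set western diet replicate 4 alone against the controls. No count past a p threshold is given for these. The count of genes past an adjusted p of 0.05 was 0, and was 1 with median-of-ratios scaling (Plat) and 2 with library weights (Cfb and Plat). It was 1 with a robust prior (Cfb) and 1 at an adjusted p of 0.10 (Cfb). Leaving out 1 library gave 0 to 1, the 1 being Cfb without western diet replicate 2. The adjusted p of Cfb ranged from 0.0353 to 0.214 over its 18 alternatives. The count at an unadjusted p under 0.05 was 13, and was 7 to 16 when 1 library was left out. Over all genes it was 1284 of 10969, and 843 to 1785 when 1 library was left out. The count of genes whose groups do not overlap was 5, was 3 at a mean of at least 5 TPM (18 genes tested), 8 with median-of-ratios scaling, 13 of 24 in the libraries with Y-linked transcripts (where the diet group is 1 library; 4843 of 10517 over all genes), 14 of 24 without libraries with atrial transcripts (fewer samples; 1957 of 10515 over all genes), and 5 to 11 when 1 library was left out. The median log2 fold change of tested members kept its sign throughout and was 0.26, with 0.14 to 0.38 over the alternatives. Of 335 values of 18 single genes, 315 kept direction and side of the threshold, 9 newly passed and 11 changed sign. Both fits that rest on western diet replicate 4 alone are among these values. C5ar1 changed to -0.15 with the Y-linked term and -0.15 in the libraries with Y-linked transcripts. Vwf changed to 0.014 with library weights and 0.11 without libraries with atrial transcripts, and ran from -0.48 to 0.13 when 1 library was left out, with a positive value without western diet replicate 2, 3 or 4. Tfpi changed to 0.067 with library weights and 0.020 without libraries with atrial transcripts, and ran from -0.16 to 0.17 when 1 library was left out, with a positive value without western diet replicate 4 or control replicate 3. C7 passed with library weights (-1.86, limma adjusted p = 0.0223). There too the controls, where C7 is high, meet the filter alone, so that p supports nothing. Except where noted, the cause was not tested. TPM keeps no depth, so values near 0 have no detection limit here.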
